A study of Arabidopsis thaliana with 12 samples.

Results

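The response of wild-type Arabidopsis root tips to 6 h on indole-3-butyric acid (IBA) was described on 6 of the 12 arrays of the study. IBA is an auxin precursor. The arrays were 3 from Col-0 (wild-type) seedlings moved for 6 h to medium with 10 µM IBA and 3 from Col-0 seedlings moved for 6 h to medium with DMSO, the solvent, in place of IBA. All seedlings were 3 days past germination, and each sample pooled at least 120 root ends of about 4 mm, taken as biologically independent replicates. The other 6 arrays came from the triple mutant ibr1ibr3ibr10, with 3 samples on IBA and 3 on DMSO at the same age and time, and served as a comparison. Titles of DMSO samples carry 0 h but their other labels 6 h, the time used here. Members were all non-control probe sets of the Affymetrix ATH1 array that name 1 gene, 13513 of 22746 probe sets, and they stood for 13355 genes with 1 probe set each. They were grouped into 47 classes by their gene symbols and synonyms or by lists of loci, which placed 591 genes. The classes were written with earlier results of these data known.

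As background, IBA acts in seedlings largely through its conversion to indole-3-acetic acid (IAA), the main active auxin, by enzymes of the peroxisome that shorten its side chain. IBR1, IBR3 and IBR10 are enzymes of that conversion, so the triple mutant converts IBA poorly. IAA marks Aux/IAA repressor proteins for breakdown, which frees auxin response factors to switch on early auxin genes, among them GH3 enzymes that conjugate and so inactivate IAA, Aux/IAA genes themselves and LBD factors that act in the founding of lateral roots. In roots, auxin slows elongation and starts new lateral root primordia in the pericycle.

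Levels are log2 array values, and a change is the IBA mean minus the DMSO mean on that scale, with its standard error from a linear model (limma) over all 12 arrays. A gene was called when its adjusted p was under 0.05, Benjamini-Hochberg adjusted over all 22746 probe sets, and only called genes are said to have risen or fallen. Deposited values reached 13.4, and arrays of 1 Col-0 group correlated at 0.995 to 0.997 across probe sets. The 24 probe sets for spiked poly-A control RNA averaged 5.31, 5.51 and 4.96 on the IBA arrays, against 4.78, 4.91 and 4.76 on the DMSO arrays. That is 5.26 ± 0.28 on IBA and 4.82 ± 0.08 on DMSO (SD, n = 3 each), with every IBA array above every DMSO array and an exact two-sided permutation p of 0.1, the smallest that 3 against 3 arrays can give. Scaling to these spikes lowers every change below by 0.44, so that each rise smaller than 0.44 turns negative, and the part of this shift in the results was not tested. Of 46 cell type markers looked for, 6 had a probe set that names the gene, and none of the 5 endodermis, 5 xylem, 4 phloem or 9 green shoot markers did. The root cap polygalacturonase AT1G65570 had 7.19, 6.78 and 6.73 on IBA, against 8.08, 7.62 and 8.00 on DMSO, 0.499 of the DMSO level (adjusted p = 0.000106). The root hair expansins EXPA7 and EXPA18 changed by -0.14 and 0.25, and BBM, a factor of the stem cell niche, by 0.05, none of them called. In such bulk samples, fewer cells of a type and less RNA per cell cannot be told apart.

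IBA changed the level of 21.4% of the genes in Col-0 root tips: 1318 rose (9.87%), 1536 fell (11.5%) and 10501 were not called. Falls were more numerous, but the large changes were mostly rises. Changes of at least 1 on the log2 scale, a 2-fold difference, were found for 208 risers and 66 fallers, and changes of at least 2, a 4-fold difference, for 37 risers and 7 fallers. The median change was 0.52 among the risers, -0.37 among the fallers and -0.05 over all genes. The 3 IBA and 3 DMSO values did not overlap in 1290 of the 1318 risers and 1485 of the 1536 fallers, and in 34.5% of all genes, called or not. Where a group mean lay under 3.24, the level below which the dimmest 30% of probe sets fall, a change is less certain. With such means raised to 3.24, 195 risers and 63 fallers kept a change of at least 1. The balance depended on scaling: rises made up 46.1% of the calls among probe sets that name 1 gene, 29.4% with each array centred on its median and 3.28% with spike scaling, where 340 rose and 10041 fell. Of the 120 risers that met the rule for naming genes, the 59 with the largest changes stayed called with spike scaling, and the others, with changes of up to 0.82, lost their call or turned negative. Rises outnumbered falls in 28 of the 47 classes, in 24 with median centring and in 7 with spike scaling, so counts of rises in a class hold for the deposited scale unless said otherwise.

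**Figure D1:**
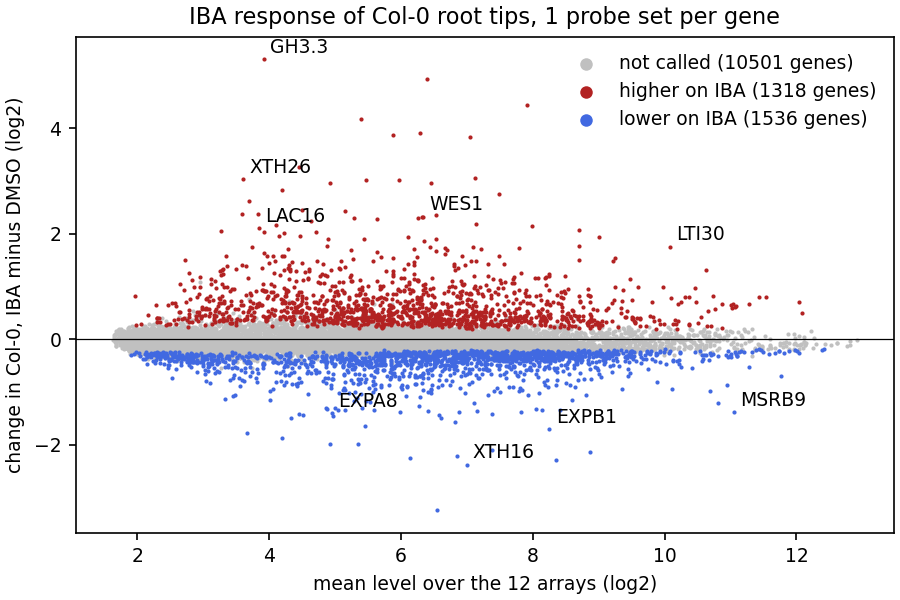
Change of each of the 13355 genes in Col-0 (IBA minus DMSO, log2) against its mean level over the 12 arrays (log2), 1 point per gene. Red points are the 1318 genes called higher on IBA, blue points the 1536 called lower and grey points the 10501 not called. Rises reach 5.31 (GH3.3), whereas the largest fall is -3.25. With spike scaling every point would lie 0.44 lower.

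Rises and falls were spread unevenly over the range of levels. Among the 1336 genes with the highest mean level, 180 rose and 329 fell, and their median change was -0.09. Among 1336 genes with mean levels between 3.77 and 4.84, 194 rose and 113 fell, with a median change of -0.01. Among the 1336 lowest, 4 rose and 18 fell. Probe sets that name no gene were called more often, 27.2% of 8730, and rises outnumbered falls there by 1396 to 979.

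The largest rise was that of GH3.3, which encodes an enzyme that joins amino acids to IAA. Its levels were 7.56, 7.77 and 8.46 in IBA root tips, against 2.70, 2.71 and 2.45 in DMSO root tips, a change of 5.31 ± 0.18 (SE, 39.7-fold, adjusted p = 3.97e-10). All 3 DMSO values lay in the dim range, and with their mean raised to 3.24 the change was 4.69. The next rises belonged to genes that the annotation used here knows by locus. AT4G38080 had 7.32, 8.33 and 8.75 on IBA, against 4.03, 2.82 and 2.76 on DMSO, a change of 4.93 ± 0.41 (adjusted p = 1.18e-06). AT1G74460, of the GDSL lipase family, had 9.13, 9.73 and 10.19 on IBA, against 5.74, 5.00 and 4.97 on DMSO, a change of 4.44 ± 0.30 (adjusted p = 1.74e-07). The family members AT3G50400 and AT2G23540 rose by 3.92 ± 0.30 and 3.87 ± 0.60. The peroxidase AT1G68850 had 6.18, 7.25 and 7.56 on IBA, against 3.12, 2.96 and 2.41 on DMSO, a change of 4.17 ± 0.37. Groups that do not overlap were a condition for the lists of largest changes. In 10 of the 15 largest rises, the lowest IBA value and the highest DMSO value were those of replicate 1. All of the above genes but GH3.3 were among these 10. AT2G23540 shows this most, with 5.19, 7.56 and 7.89 on IBA, against 3.85, 2.50 and 2.67 on DMSO.

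The remaining genes among the 15 largest rises changed by 2.83 to 3.83. They were AT5G12420, AT2G22510, AT4G36610, XTH26, AT1G60750, AT5G14130, AT1G14120, AT5G13900 and AT2G43390. AT5G12420 had 8.01, 8.37 and 8.88 on IBA, against 5.00, 4.40 and 4.38 on DMSO, and AT4G36610 had 8.04, 8.31 and 8.74 on IBA, against 5.53, 5.19 and 5.19 on DMSO. In both, every IBA array lay above every DMSO array, which the choice of the list required.

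Among the falls, AT5G04120 led with 4.95, 4.94 and 4.85 on IBA, against 8.30, 7.97 and 8.21 on DMSO, a change of -3.25 ± 0.18 (adjusted p = 3.24e-08). AT4G11210 had 6.95, 7.00 and 6.90 on IBA, against 9.28, 9.29 and 9.17 on DMSO, a change of -2.30 ± 0.09. The peptide gene AT5G66815 (CEP5), one of a family of secreted peptides that act on root growth and lateral root number, had 4.67, 4.46 and 4.51 on IBA, against 6.81, 6.76 and 6.81 on DMSO, a change of -2.25 ± 0.10 (adjusted p = 9.15e-09). All 3 genes were lower on every IBA array than on any DMSO array, again a condition of the list. Changes of -2.38 to -2.11 were measured for the wall enzyme gene XTH16 and for AT4G01140, AT4G25250 and AT3G59370, and changes of -1.99 to -1.50 for AT1G24735, AT1G61840, AT2G40250, AT4G11020, EXPB1, AT5G18840, AT5G24100 and AT2G02620. AT4G11020 and AT2G40250 were dim on IBA, and with that mean raised to 3.24 their changes were -1.08 and -1.11.

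**Figure D2:**
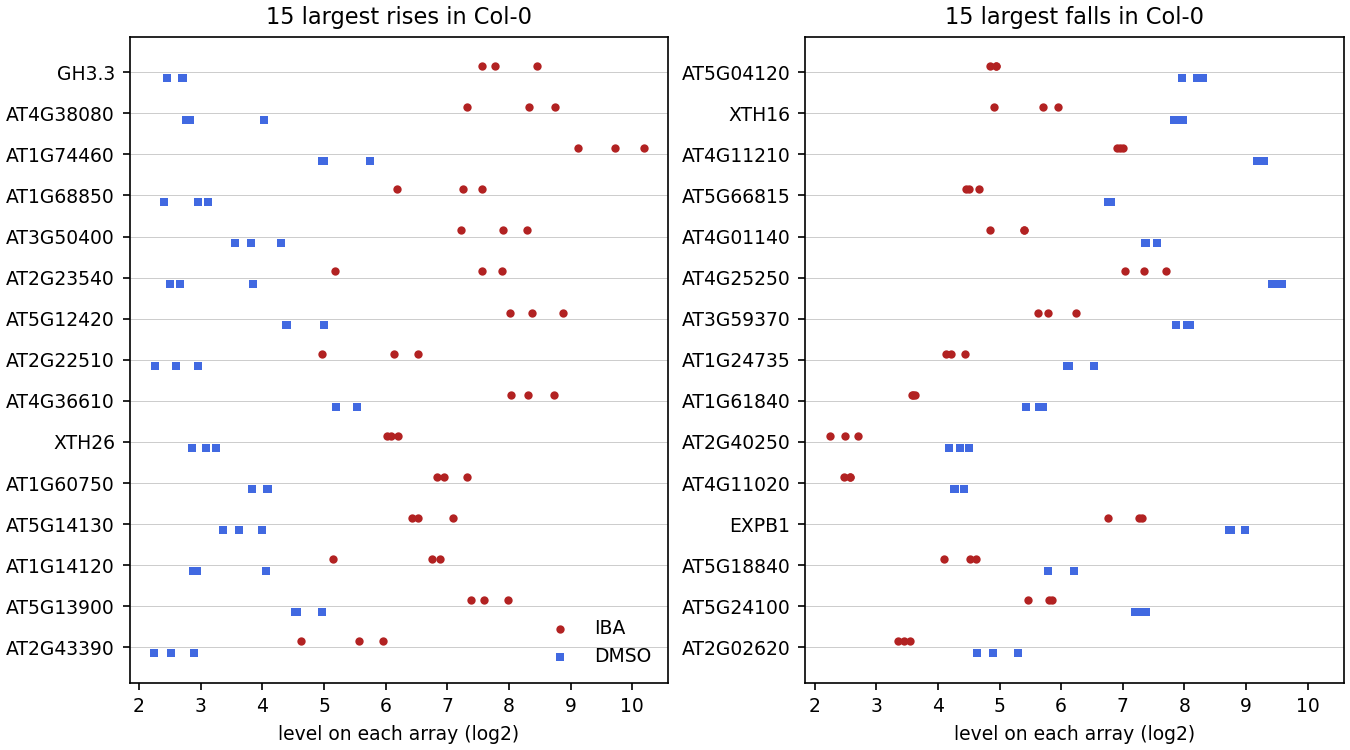
Levels (log2) on each Col-0 array of the 15 genes that rose most (left) and the 15 that fell most (right). Red circles are the 3 IBA arrays and blue squares the 3 DMSO arrays, drawn below them. Groups that do not overlap were a condition for the choice of the 30 genes. The gap is widest for GH3.3, with 7.56 to 8.46 on IBA and 2.45 to 2.71 on DMSO.

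Genes that inactivate auxin rose most as a class: 6 of 10 measured rose and none fell, with a median change of 1.23 against -0.05 over all genes. Beside GH3.3, the IAA-conjugating WES1 (GH3.5) had 8.27, 8.52 and 8.36 on IBA, against 6.23, 5.96 and 5.98 on DMSO, a change of 2.32 ± 0.11 (adjusted p = 1.28e-08). GH3.1 of the same family had 5.33, 5.47 and 5.37 on IBA, against 4.04, 4.05 and 4.16 on DMSO, a change of 1.31 ± 0.11. The oxidation route was also higher. AT1G14130 (DAO1), a dioxygenase that oxidizes IAA, had 6.21, 6.56 and 6.76 on IBA, against 5.07, 4.93 and 4.89 on DMSO, a change of 1.55 ± 0.12 (adjusted p = 4.29e-07). Its neighbour AT1G14120 (DAO2) had 5.14, 6.88 and 6.76 on IBA, against 4.05, 2.94 and 2.87 on DMSO, a change of 2.97 ± 0.40. IAGLU is a glucosyltransferase named for IAA, and which auxin it acts on was not tested. It had 8.39, 8.57 and 8.33 on IBA, against 7.24, 7.39 and 7.18 on DMSO, a change of 1.16 ± 0.08 (adjusted p = 3.49e-07). All 6 stayed called higher with spike scaling. The other 4, GH3.17 among them, changed by -0.16 to 0.15 and were not called, but GH3.9 and UGT84B1 were called lower with spike scaling (adjusted p of 0.0021 and 0.00737).

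Only 7 Aux/IAA repressor genes had a probe set that names them: IAA18, IAA20, IAA29, IAA30, IAA31, IAA33 and IAA34. The counts cover these alone and say nothing about other members of the family. Of the 7, 3 rose and none fell, and their median change was 0.14. IAA29 had 4.01, 3.71 and 4.23 on IBA, against 3.20, 3.23 and 3.08 on DMSO, a change of 0.82 ± 0.11 (adjusted p = 7.71e-05), and IAA18 and IAA30 rose by 0.58 and 0.47. None of the 3 rises was called with spike scaling, under which 3 Aux/IAA genes were called lower. All 4 lateral root factors rose, 3 of them also with spike scaling. The LOB-domain factor LBD16 had 5.71, 5.43 and 5.92 on IBA, against 4.19, 4.24 and 4.22 on DMSO, and LBD29 had 4.27, 4.51 and 4.77 on IBA, against 3.14, 3.22 and 3.24 on DMSO. These are rises of 1.47 ± 0.10 and 1.32 ± 0.16. PUCHI, a factor of early primordia, had 3.87, 4.89 and 4.18 on IBA, against 3.14, 3.49 and 3.55 on DMSO, a change of 0.92 ± 0.19. The receptor kinase gene CR4 rose by 0.36 and turned to -0.08 with spike scaling. WAG2, a kinase that acts on auxin transporters, had 7.27, 7.35 and 7.01 on IBA, against 6.41, 6.29 and 6.40 on DMSO, a change of 0.84 ± 0.12, while the transporter gene AT1G72140 (NPF5.12) changed by 0.35 ± 0.15 and was not called (adjusted p = 0.114), but was called without IBA replicate 1, with a change of 0.53 (adjusted p = 0.00971). Of 4 auxin synthesis genes, YUC6, a flavin monooxygenase of IAA synthesis, fell by 0.35 ± 0.10 (adjusted p = 0.0198), a call lost without IBA replicate 1, DMSO replicate 1 or DMSO replicate 2 (adjusted p up to 0.0746).

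Of 8 cytokinin genes, 3 rose and none fell, with a median of 0.20. The response regulator RR16 had 3.57, 3.75 and 3.95 on IBA, against 3.03, 2.87 and 2.57 on DMSO, a change of 0.94 ± 0.13 (adjusted p = 8.77e-05), with a DMSO mean in the dim range (0.51 with that mean raised to 3.24). UGT76C2, which joins glucose to cytokinins, had 5.85, 6.35 and 6.22 on IBA, against 5.24, 5.21 and 5.40 on DMSO, a change of 0.85 ± 0.11, and UGT76C1, its neighbour on the chromosome with the same activity, rose by 0.46 ± 0.08. With spike scaling 2 of these 3 genes were still called higher, and 4 other cytokinin genes were called lower. The gibberellin receptor genes GID1B and GID1A rose by 0.43 and 0.37, both of which turned slightly negative with spike scaling (-0.01 and -0.07). The call of GID1A was lost without IBA replicate 3 (adjusted p = 0.0543).

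Enzymes that loosen or remodel the cell wall split into risers and fallers within nearly every family. XTH enzymes cut and rejoin xyloglucan chains: 3 of 10 rose and 2 fell. XTH26 had 6.02, 6.20 and 6.09 on IBA, against 3.25, 2.86 and 3.08 on DMSO, a change of 3.04 ± 0.10 (adjusted p = 3.97e-10). XTH16 had 5.94, 4.91 and 5.70 on IBA, against 7.83, 7.98 and 7.89 on DMSO, a change of -2.38 ± 0.19 (adjusted p = 7.71e-07). XTH33 rose by 0.82 ± 0.13 and EXGT-A3 by 0.38 ± 0.07, the second of which turned to -0.06 with spike scaling, and XTH21 fell by 0.97 ± 0.12.

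Expansins, which loosen the wall without cutting it, showed 4 rises and 3 falls among 19 genes, with a median of -0.02. EXLB1 had 5.33, 5.73 and 5.86 on IBA, against 4.98, 4.76 and 4.79 on DMSO, and EXPA4 had 7.18, 7.34 and 7.56 on IBA, against 6.64, 6.59 and 6.79 on DMSO. These rises of 0.80 and 0.69 did not stay called with spike scaling. EXPA15 and EXPA9 rose by 0.36 and 0.35 and turned to -0.08 and -0.09 with spike scaling, and EXPA15 also lost its call without any 1 of 4 arrays, IBA replicates 1 and 2 and DMSO replicates 1 and 2 (adjusted p up to 0.0836). The falls were larger. EXPB1 had 7.26, 6.76 and 7.31 on IBA, against 8.75, 8.73 and 8.98 on DMSO, a change of -1.71 ± 0.14 (adjusted p = 1.05e-06). EXPA8 had 4.12, 3.92 and 3.76 on IBA, against 5.26, 5.40 and 5.34 on DMSO, a change of -1.40 ± 0.09, and EXLA2 had 5.39, 5.52 and 5.29 on IBA, against 6.72, 6.74 and 6.86 on DMSO, a change of -1.38 ± 0.08.

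The same division was seen in genes that act on cellulose, pectin and hemicellulose. Of 15 GH9 cellulase genes, 2 rose and 4 fell. GH9B13 had 7.94, 7.53 and 7.81 on IBA, against 8.47, 8.68 and 8.65 on DMSO, a change of -0.84 ± 0.11, and GH9B17 fell by 0.83 ± 0.14 at levels that were dim on IBA (-0.03 with that mean raised to 3.24). GH9C1 rose by 0.45 ± 0.08 and GH9C2 by 0.43 ± 0.07, changes of 0.01 and -0.01 with spike scaling, under which none of the 15 was called higher and 12 were called lower. Without DMSO replicate 1, only 2 of the 15 were called lower. Among 5 pectin methylesterases, enzymes that remove methyl groups from pectin, ATPMEPCRB had 4.14, 4.31 and 3.81 on IBA, against 2.81, 2.84 and 2.89 on DMSO, a change of 1.24 ± 0.12. PMEPCRF rose by 0.97 ± 0.07, and ATPMEPCRD had 5.65, 5.35 and 5.42 on IBA, against 6.42, 6.36 and 6.49 on DMSO, a change of -0.95 ± 0.08. CSLC12, a synthase of the xyloglucan backbone, had 6.11, 6.35 and 5.97 on IBA, against 4.70, 4.82 and 4.88 on DMSO, a rise of 1.35 ± 0.13 (adjusted p = 3.31e-06), while CSLA03, of the mannan synthases, fell by 0.38 ± 0.08. In the trichome birefringence-like (TBL) family, whose studied members add acetyl groups to wall polysaccharides, 8 of 23 genes fell and 2 rose, with a median of -0.18. AT2G31110, TBL37, TBL19 and TBL25 changed by -0.75 to -0.51. The rises of TBL36 and TBL30, 0.39 and 0.29, turned negative with spike scaling, and each was lost without at least 1 array: TBL36 without DMSO replicate 3 (adjusted p = 0.0699) and TBL30 without any of IBA replicates 1 and 3 and DMSO replicates 1 and 2 (up to 0.16).

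**Figure D3:**
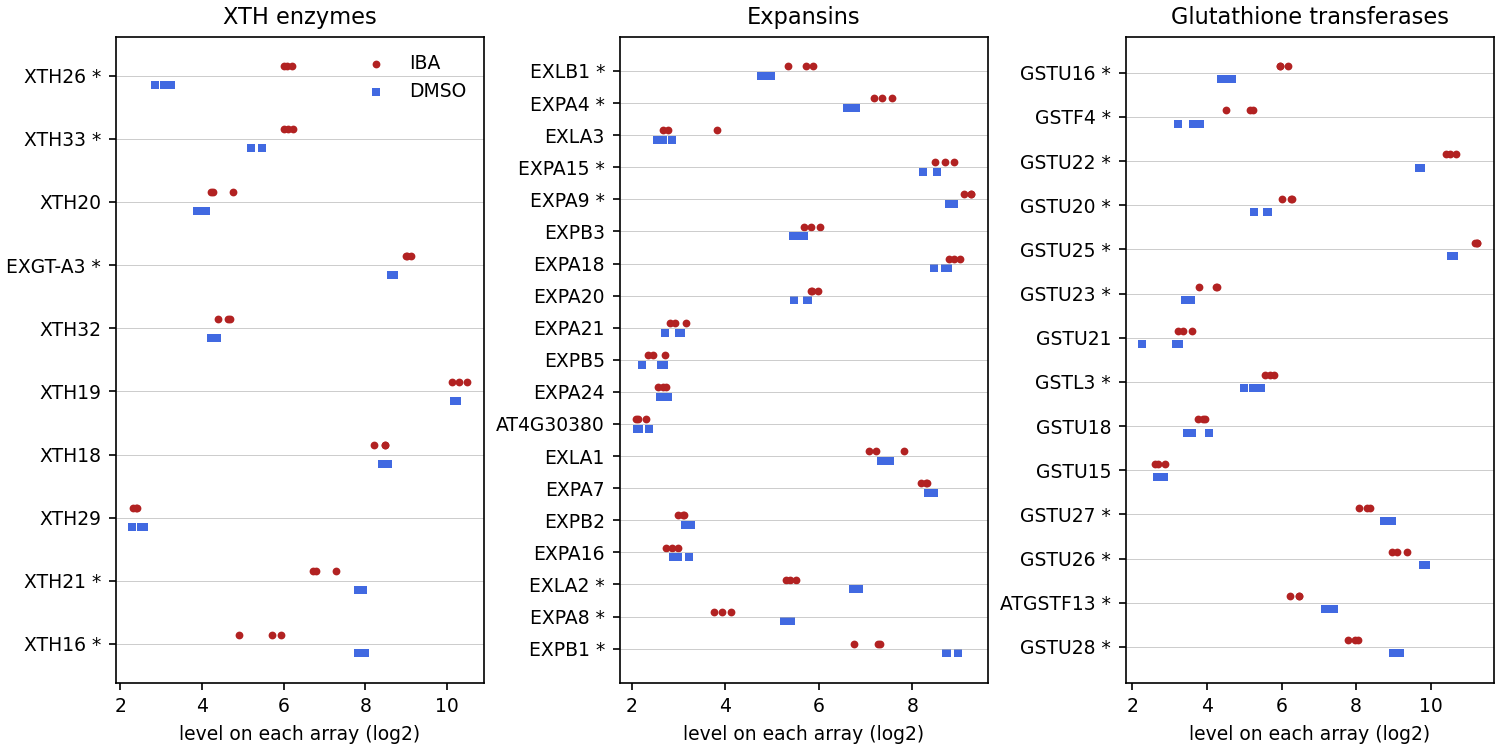
Levels (log2) on each Col-0 array of all measured XTH enzymes, expansins and glutathione transferases, ordered by change; red circles are IBA arrays, blue squares, drawn below them, DMSO arrays, and an asterisk marks a called gene. In each family called genes stand at both ends, for example XTH26 (3.04) and XTH16 (-2.38); with spike scaling EXGT-A3, EXPA15 and EXPA9 turn to falls that are not called.

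Glutathione transferases, which join glutathione to reactive compounds, moved in both directions, with 7 of 14 rising and 4 falling and a median of 0.47. GSTU16 had 5.95, 5.97 and 6.16 on IBA, against 4.49, 4.66 and 4.38 on DMSO, a change of 1.51 ± 0.09 (adjusted p = 5.34e-08). GSTF4 had 4.50, 5.24 and 5.17 on IBA, against 3.82, 3.63 and 3.22 on DMSO, a change of 1.41 ± 0.20. GSTU22 and GSTU20 rose by 0.81 and 0.68. Opposite to them, GSTU28 had 7.97, 7.77 and 8.05 on IBA, against 9.08, 8.99 and 9.17 on DMSO, a change of -1.15 ± 0.09 (adjusted p = 5.54e-07), and ATGSTF13, GSTU26 and GSTU27 changed by -0.88, -0.70 and -0.64. With spike scaling 2 members, GSTU16 and GSTF4, were called higher and 5 lower.

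UDP-glycosyltransferases (UGTs), which join sugars to small molecules, were the largest enzyme family, with 12 of 51 genes rising and 6 falling. UGT73B1 had 7.06, 7.11 and 7.40 on IBA, against 5.31, 5.49 and 5.51 on DMSO, a change of 1.75 ± 0.10 (adjusted p = 3.33e-08). UGT76D1 had 5.62, 6.23 and 5.58 on IBA, against 4.22, 4.12 and 3.94 on DMSO, a change of 1.72 ± 0.17. UGT87A2 and UGT73B5 rose 2.3-fold and 1.82-fold. Among the falls, UGT71C2 had 5.39, 5.18 and 5.60 on IBA, against 5.92, 6.10 and 6.00 on DMSO, a change of -0.61 ± 0.10. The count of falls dropped to 2 without IBA replicate 2 and to 3 without DMSO replicate 2 or 3. There were 12 rises and 10 falls with median centring, and 6 rises and 25 falls with spike scaling. Of 18 cytochrome P450 genes of the CYP71B group, 6 rose and 1 fell, and CYP71B37 rose most, with 4.37, 4.09 and 4.29 on IBA, against 3.88, 3.43 and 3.46 on DMSO. None of these 6 rises stayed called with spike scaling, and 10 of the 18 were dim in both groups. The 5 cytochrome P450 genes of other groups had the lowest median of the classes of at least 5 genes, -0.74, with 3 falls and 1 rise. CYP78A9 had 4.52, 4.55 and 4.47 on IBA, against 5.08, 5.23 and 5.48 on DMSO, a change of -0.75 ± 0.10, and CYP51G2 fell by 0.74 ± 0.11. In this class CYP718 rose by 1.29 ± 0.15 and CYP84A4 fell by 1.31 ± 0.12. The aldehyde dehydrogenases ALDH7B4 and ALDH2C4 rose by 0.66 ± 0.07 and 0.59 ± 0.06, and neither stayed called with spike scaling. They were the 2 called of 8, or 25.0%, near the 21.4% over all genes.

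All 9 measured ATG8 genes rose. ATG8 proteins are attached to the membrane of the autophagosome, the vesicle that carries cell contents to the vacuole. Changes ran between 0.22 and 1.31, with a median of 0.48 against -0.05 over all genes. ATG8B had 5.51, 5.53 and 5.77 on IBA, against 4.73, 3.92 and 4.21 on DMSO, a change of 1.31 ± 0.17 (adjusted p = 5.41e-05). ATG8F had 8.35, 8.67 and 8.74 on IBA, against 7.68, 7.52 and 7.45 on DMSO, a change of 1.04 ± 0.10 (adjusted p = 3.65e-06). ATG8H and ATG8E rose by 0.72 and 0.64. With spike scaling 2 of the 9 stayed called higher, none was called lower, and the median was 0.04. Whether probe sets of this family also bind related transcripts was not tested.

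Genes of protein folding and degradation in the endoplasmic reticulum (ER) went the other way: 8 of 10 fell and none rose, with a median of -0.36. OS9, which helps to pick misfolded proteins for degradation, had 7.17, 7.06 and 7.30 on IBA, against 7.82, 7.53 and 7.88 on DMSO, a change of -0.56 ± 0.09 (adjusted p = 0.000553). ATERDJ3B, a co-chaperone, had 9.84, 9.77 and 9.79 on IBA, against 10.28, 10.19 and 10.33 on DMSO, a change of -0.47 ± 0.07 (adjusted p = 0.000136). BZIP60, a transcription factor of the unfolded protein response, had 7.38, 7.29 and 7.21 on IBA, against 7.69, 7.71 and 7.63 on DMSO, a change of -0.39 ± 0.07. Each of the 3 was lower on every IBA array than on any DMSO array. Spike scaling and median centring both lower every Col-0 change, so neither could turn these falls into rises.

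Among proteases, the serine carboxypeptidase-like family had 5 rises and 3 falls in 29 genes, a share called of 27.6% against 21.4% over all genes. There were 5 rises and 6 falls with median centring, and 2 and 21 with spike scaling. SCPL genes scpl31 and scpl28 rose by 1.59 ± 0.26 and 1.48 ± 0.11, the first from a dim DMSO level (0.78 with that mean raised to 3.24), and scpl40 had 6.62, 6.43 and 6.21 on IBA, against 7.28, 7.25 and 7.30 on DMSO, a change of -0.86 ± 0.09. Of 10 subtilases, ATSBT5.2 had 6.27, 6.14 and 6.61 on IBA, against 5.33, 5.12 and 4.95 on DMSO, and SBT3.5 had 5.73, 5.89 and 5.96 on IBA, against 4.87, 4.67 and 4.65 on DMSO. These rises of 1.21 and 1.13 stayed called with spike scaling. Of 13 ubiquitin-conjugating enzymes, 3 rose (23.1%, near the 21.4% called over all genes), led by UBC29 with a change of 0.83 ± 0.10. Methionine sulfoxide reductases, which repair oxidized methionine, split: MSRB6 had 8.20, 8.21 and 8.22 on IBA, against 7.34, 7.01 and 6.93 on DMSO, whereas MSRB9 had 10.16, 9.99 and 10.21 on IBA, against 11.51, 11.48 and 11.53 on DMSO. The changes were 1.11 ± 0.10 and -1.39 ± 0.08. The rise was still called with spike scaling, which makes every fall larger.

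Tubulins form microtubules. Of 7 tubulin genes, 4 fell and none rose, with a median of -0.23. TUB1 had 9.46, 9.31 and 9.46 on IBA, against 9.97, 10.00 and 9.98 on DMSO, a change of -0.57 ± 0.07 (adjusted p = 3.29e-05), and TUB7 had 8.24, 8.33 and 8.30 on IBA, against 8.73, 8.74 and 8.71 on DMSO, a change of -0.44 ± 0.07. TUB5 and TUA6 changed by -0.35 and -0.23, the second a call lost without any 1 of the 5 arrays other than IBA replicate 1 (adjusted p up to 0.0764). Of 15 genes for IQ-domain (IQD) proteins, which bind calmodulin and many of which bind microtubules, 5 fell and none rose. IQD19 had 5.95, 5.97 and 6.06 on IBA, against 6.89, 6.83 and 7.02 on DMSO, a change of -0.92 ± 0.08 (adjusted p = 2.69e-06), and iqd33 fell by 0.75 ± 0.10. The IQD count was 3 without IBA replicate 2 or without DMSO replicate 2. In the family of TON1 recruiting motif (TRM) proteins 2 rose and 2 fell of 14, a share called of 28.6% against 21.4% over all genes. TRM28 and TRM19 rose by 0.96 and 0.93, and TRM26 had 5.90, 6.00 and 6.01 on IBA, against 6.67, 6.78 and 6.77 on DMSO, a change of -0.77 ± 0.08.

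Histone genes gave 3 falls and 1 rise in 6. HTB2, an H2B gene, had 8.35, 8.46 and 8.08 on IBA, against 8.74, 8.66 and 8.75 on DMSO, a change of -0.42 ± 0.09. HTB1 and HTR12, the centromere histone, changed by -0.34 and -0.35, and of the 3 falls only that of HTB2 was called without IBA replicate 2 or without DMSO replicate 1. HIS1-3, a linker histone, rose by 0.51 from dim levels and was not called with spike scaling. Of 11 PRA1 proteins of vesicle traffic, 4 fell and none rose, led by PRA1.G2 with 4.85, 4.77 and 5.14 on IBA, against 5.57, 5.49 and 5.66 on DMSO. PRA1.B6 fell by 0.61 ± 0.09.

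Among 10 LEA proteins and dehydrins, which protect cells during drying and cold, 4 rose and 2 fell. Both fallers, COR27 (-0.48) and LEA (AT2G21490, -0.50), were dim in both groups, as was the riser LEA18 (0.32). These changes are less certain, and each was 0.00 with dim means raised. LTI30 had 10.59, 10.63 and 10.88 on IBA, against 9.01, 8.96 and 8.86 on DMSO, a change of 1.76 ± 0.09 (adjusted p = 2.3e-08), and COR47 had 12.23, 12.17 and 12.38 on IBA, against 11.68, 11.50 and 11.52 on DMSO, a change of 0.70 ± 0.08. The rise of COR47 was not called with spike scaling, while those of LTI30 and LEA4-5 (1.06) were, and the class then had 2 rises and 5 falls. The jacalin-related lectin JAL22 had 5.37, 6.32 and 6.39 on IBA, against 4.00, 3.72 and 3.63 on DMSO, a change of 2.24 ± 0.22, and JAL33 rose by 1.23 ± 0.18. Of 12 small cysteine-rich proteins, a family that holds defensins, 3 rose, against 1 rise and 7 falls with spike scaling. LCR69 had 9.25, 9.50 and 9.84 on IBA, against 7.56, 7.33 and 7.46 on DMSO, a change of 2.08 ± 0.14 (adjusted p = 2.25e-07). Of 22 beta-glucosidases, 4 rose and none fell, a share called of 18.2% against 21.4% over all genes, and 16 were dim in both groups. With spike scaling 1 rose and 14 fell. BGLU46 had 5.94, 5.95 and 6.01 on IBA, against 5.14, 4.98 and 5.13 on DMSO, and PYK10, the abundant beta-glucosidase of root ER bodies, had 12.03, 12.31 and 12.33 on IBA, against 11.79, 11.84 and 11.54 on DMSO. These are rises of 0.88 and 0.50, of which only that of BGLU46 stayed called with spike scaling.

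Signal and regulatory genes showed single large changes. CLE44, which encodes a peptide that acts on vascular stem cells, had 3.65, 4.06 and 4.66 on IBA, against 2.79, 2.75 and 2.97 on DMSO, a change of 1.29 ± 0.19, the only call among 6 CLE genes. RALFL32 rose by 0.75 ± 0.08 and RALFL33 fell by 0.40 ± 0.09, of 11 RALF peptides, and the rise was not called with spike scaling (adjusted p = 0.0957). Among 20 bZIP factors 3 rose and 4 fell, and bZIP44 had 9.02, 9.12 and 8.89 on IBA, against 7.79, 7.82 and 7.80 on DMSO, 2.3-fold higher (adjusted p = 2.33e-07). WRKY42 rose by 0.79 ± 0.08, largely from dim levels, and was not called with spike scaling. The 3 called of 7 bHLH factors all rose and all belong to groups that act in the iron deficiency response: BHLH101 by 0.76, bHLH34 by 0.36 and bHLH104 by 0.36. With spike scaling bHLH34 and bHLH104 turned to -0.08 and -0.09, BHLH101, dim in both groups, was no longer called, and bHLH34 lost its call without DMSO replicate 3 (adjusted p = 0.062).

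Of the transporters, the vacuolar sugar transporter gene SWEET2 had 5.94, 5.71 and 6.28 on IBA, against 4.95, 4.89 and 5.03 on DMSO, a change of 1.02 ± 0.13, 1 of 2 calls among 16 SWEET genes. OCT1 and OCT5, of the organic cation and carnitine transporters, rose by 0.77 and 0.73, but neither was called with spike scaling (adjusted p of 0.0928 and 0.107). OCT1 was dim on DMSO, and its change was 0.21 with that mean raised to 3.24. The metal transporter gene ZIP6 rose by 0.82 ± 0.11.

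Nuclear genes for photosystems and light harvesting were higher in root tips on IBA: 7 of 11 rose and none fell, with a median of 0.42. PGRL1B, of cyclic electron flow, had 4.91, 5.18 and 5.49 on IBA, against 4.13, 3.99 and 4.02 on DMSO, a change of 1.15 ± 0.13 (adjusted p = 1.79e-05). RCA, the activase of Rubisco, had 6.23, 6.09 and 6.28 on IBA, against 5.12, 5.29 and 4.93 on DMSO, a change of 1.08 ± 0.11 (adjusted p = 6.15e-06). LHCB4.1, an antenna protein, had 5.37, 5.53 and 5.55 on IBA, against 4.73, 4.65 and 4.51 on DMSO, a change of 0.85 ± 0.10. With spike scaling 3 of the 7 stayed called higher, none was called lower, and the median was -0.02. None of the 9 green shoot markers had a probe set that names the gene, so the part of green tissue was not tested. Genes of the plastid and mitochondrial genomes were seldom called, with 1 rise and 7 falls in 82, or 9.76% against 21.4% over all genes. Their median of -0.08 was near the -0.05 over all genes. The number of falls was 4 without IBA replicate 1 or 3, 2 without DMSO replicate 1 and 1 without DMSO replicate 2, and the number of rises was 4 without IBA replicate 3 and 2 without DMSO replicate 2.

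In respiration, the succinate dehydrogenase genes SDH1-1 and SDH2-1 rose by 0.25 and 0.30, both turning negative with spike scaling. Both calls were lost without IBA replicate 2 (adjusted p of 0.0562 and 0.0859), and that of SDH2-1 also without IBA replicate 3 or DMSO replicate 2 or 3 (up to 0.0914). SDH1-2, the second gene for the flavoprotein subunit, had 5.28, 4.97 and 5.09 on IBA, against 5.80, 6.02 and 5.78 on DMSO, a change of -0.76 ± 0.12 (adjusted p = 0.000409).

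**Figure D4:**
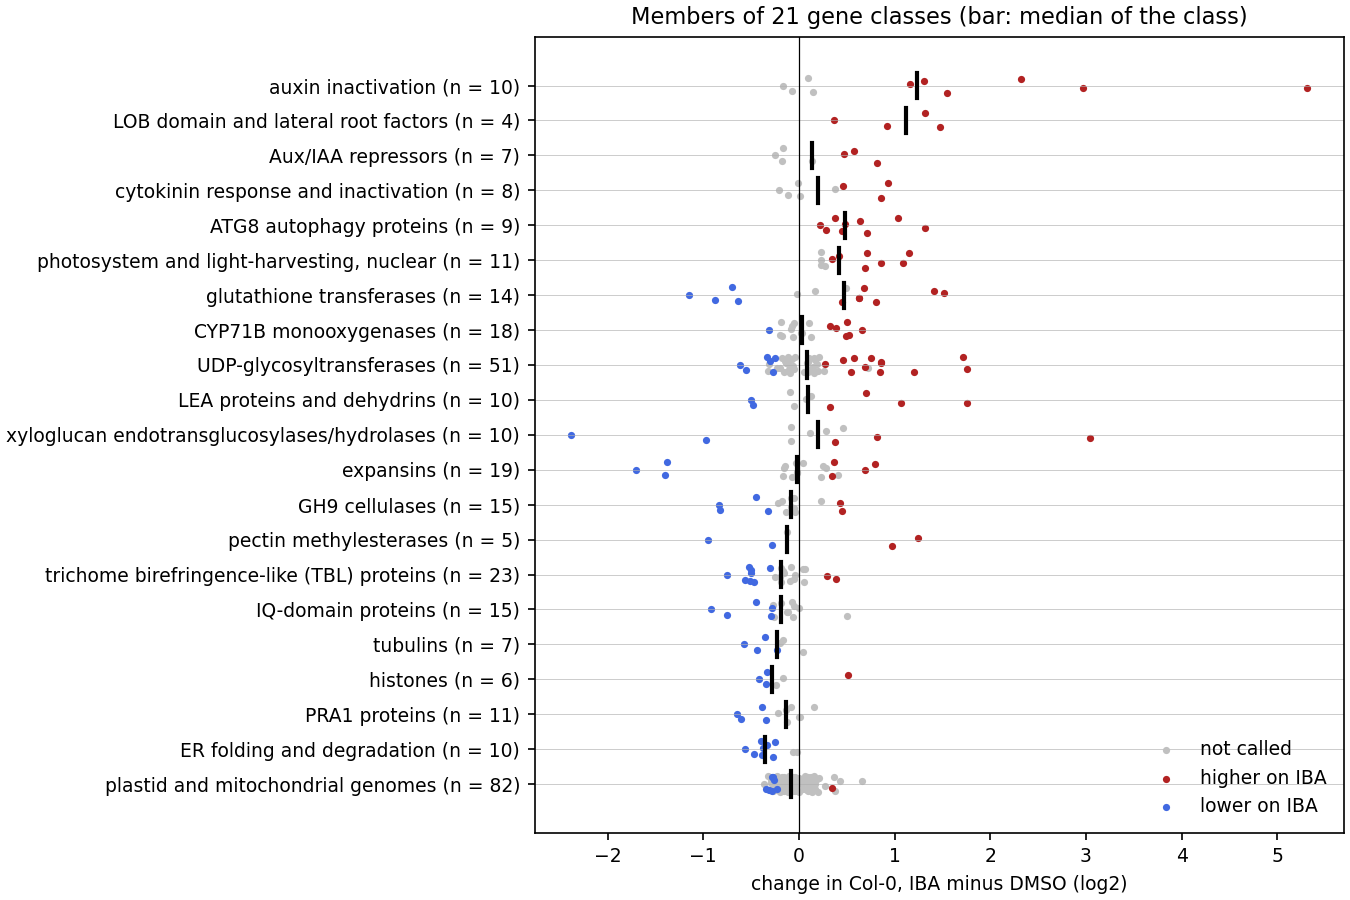
Changes in Col-0 (IBA minus DMSO, log2) of all measured members of 21 classes, 1 point per gene, with the class median as a black bar and the number of genes in brackets. Red points rose, blue points fell and grey points were not called. All 9 ATG8 genes lie right of 0 and all 10 ER genes left of it, while wall enzymes and glutathione transferases spread to both sides. With spike scaling every point and bar would lie 0.44 lower, which takes 3 of the 9 ATG8 genes and the photosystem median (-0.02) below 0.

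The changes in Col-0 were set against those in ibr1ibr3ibr10, whose arrays were not used for the Col-0 change itself other than for the shared estimate of spread. The difference between the responses, tested in the same fit, was called for 767 of 13355 genes (5.74%). In the mutant the spike mean was 4.86 ± 0.08 on IBA and 4.95 ± 0.12 on DMSO (SD, n = 3 each), so spike scaling lowers every difference of responses below by 0.54. With it 7203 genes had a called difference, 106 larger and 7097 smaller in Col-0. All 30 differences described next kept their sign, as the negative ones were bound to. For the top risers and fallers listed earlier, 28 of the 30 differences were called, with AT2G22510 and AT2G43390 as the exceptions. The 30 genes were chosen by their Col-0 change, which enters the difference itself. A high share of calls was thus built into the choice, and the count tells nothing about other genes. GH3.3 averaged 2.36 ± 0.13 on IBA, against 2.78 ± 0.14 on DMSO, in the mutant (SD, n = 3 each), and the Col-0 response minus the mutant response was 5.72 ± 0.25 (adjusted p = 1.5e-08). WES1 averaged 4.91 ± 0.03 on IBA, against 6.01 ± 0.21 on DMSO, in the mutant, where it changed by -1.11 ± 0.11, and the responses differed by 3.43 ± 0.15. LBD16 likewise averaged 3.36 ± 0.03 on IBA, against 4.13 ± 0.10 on DMSO, in the mutant, with a difference of responses of 2.24 ± 0.15. Among the 15 largest rises in Col-0, all but GH3.3, XTH26, AT2G23540 and AT1G14120 also rose in the mutant. AT5G14130 and AT3G50400 rose there by 1.60 and 1.56. AT1G60750 rose by 2.16 in the mutant, and its responses differed by 0.87 ± 0.22. That difference was 0.33 with spike scaling and was then not called.

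In the wall families, XTH26 changed by -0.34 in the mutant and XTH16 by -0.35, so that the responses differed by 3.38 ± 0.14 and -2.03 ± 0.27 (adjusted p = 1.1e-08 and 0.000315). EXPA8 changed by 0.01 in the mutant, a difference of responses of -1.41 ± 0.13, and CSLC12 by -0.15, a difference of 1.50 ± 0.18. GSTU20 changed by -1.05 ± 0.14 in the mutant, opposite to its rise in Col-0, with a difference of 1.73 ± 0.20 (adjusted p = 8.91e-05). IQD19 and TRM26 changed by -0.09 and -0.02 in the mutant, with differences of -0.83 ± 0.12 and -0.74 ± 0.11.

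Some classes had close medians in the 2 genotypes on the deposited scale, but not with spike scaling. The median change of the nuclear photosystem genes was 0.42 in Col-0, beside 0.44 in the mutant. The difference was called for 1 gene, PGRL1B (0.77 ± 0.18). With spike scaling these medians were -0.02 in Col-0, beside 0.53 in the mutant, and 5 of the 11 differences were called, without PGRL1B (0.24). For the ER class the medians were -0.36 in Col-0 and -0.20 in the mutant, with no difference called among 10 genes by limma and 1 at an unadjusted p under 0.05. With spike scaling 7 of these 10 differences were called. For ATG8 the medians were 0.48 in Col-0, beside 0.29 in the mutant. In all, 3 of 9 genes, ATG8B and ATG8F among them, had a called difference, all larger in Col-0, and none had one with spike scaling. A difference that was not called does not show that the responses were alike. The auxin inactivation class had medians of 1.23 in Col-0 and 0.06 in the mutant, where its genes moved both ways. In the mutant 3 rose, AT1G14130 (1.07), IAGLU (0.68) and UGT74D1 (0.26), and 2 fell, WES1 (-1.11) and GH3.17 (-0.45). In this class 6 of 10 differences were called, without that of AT1G14130 (0.475 ± 0.16). All 6 were larger in Col-0, and 5 were called with median centring. With spike scaling 4 were called larger in Col-0 (GH3.3, WES1, GH3.1 and AT1G14120), IAGLU and GH3.17 were no longer called, and UGT74D1, UGT84B1 and GH3.9 were called smaller in Col-0 (-0.71, -0.76 and -0.67).

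**Figure D5:**
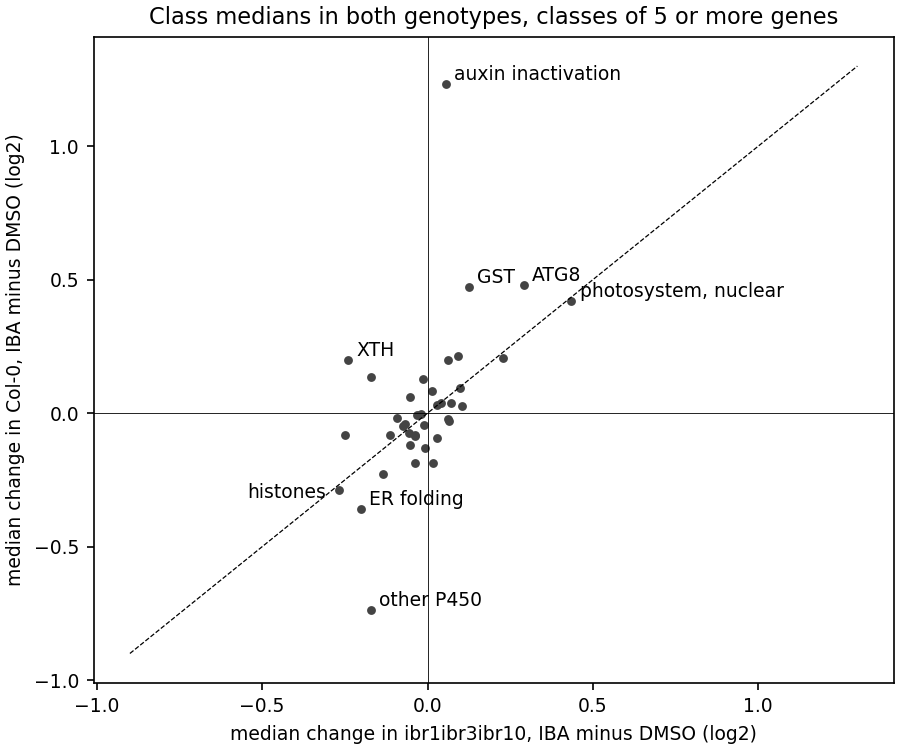
Median change of each class of at least 5 genes in Col-0 (vertical axis, IBA minus DMSO, log2) against its median change in ibr1ibr3ibr10 (horizontal axis, same unit), 1 point per class; the dashed line marks equal medians. Auxin inactivation lies far above the line (1.23 in Col-0, 0.06 in the mutant), while the nuclear photosystem class lies near it (0.42 in Col-0, 0.44 in the mutant). Spike scaling lowers each Col-0 median by 0.44 and raises each mutant median by 0.10, which takes the photosystem class to -0.02 in Col-0 and 0.53 in the mutant, well below the line.

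Neighbouring genes were taken from the order of protein-coding genes by start position on each chromosome. Among 5849 pairs of neighbouring loci with both genes measured, 353 pairs (6.04%) had both called, where the share of called genes alone gives 4.57%. Of them 206 (58.4%) moved in 1 direction, where the shares of rises and falls alone give 50.3%. Neither difference was tested. There were 20 runs of at least 3 neighbours called the same way. One run joined the expansin gene EXPA8 (AT2G40610), AT2G40620 and AT2G40630, which all fell, although the call of AT2G40620 was lost without IBA replicate 2 or 3 or DMSO replicate 2 or 3 (adjusted p up to 0.156). The run from AT5G05860 to AT5G05880 rose and holds UGT76C2 and UGT76C1, genes of similar sequence for which shared probe binding was not tested. The largest fall of a run, in AT4G25250 (-2.14 ± 0.13), stood beside AT4G25260 and AT4G25270.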

How the data were processed

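RNA of 12 root tip samples was measured on Affymetrix ATH1 arrays, after spiking and amplification from the 3' end per the labels' protocols. The deposited values are log2 expression levels that the authors made with RMA (affy 1.40.0), per the submitters' processing notes; depth has no meaning for arrays, and 3 arrays per group limit the precision. A linear model (limma 3.58.1, R 4.3.3) was fitted to 4 group means over the 12 arrays, with Benjamini-Hochberg adjustment over the 22746 non-control probe sets and a call at an adjusted p under 0.05. The model was tested on simulated data. A gene with more than 1 probe set was read from the brightest. Gene names came from GEO's platform annotation and RefSeq (TAIR10.1), which matched all but 77 identifiers, and the array has probe sets for relatives of similar sequence whose specificity was not tested. Named genes were the 15 largest called changes each way among genes whose IBA and DMSO values did not overlap. To these were added up to 4 called members of each class each way, hormone genes and genes whose probe sets disagree. The members, classes and lists were chosen with earlier results of these data known. Alternatives were 3 scalings (median centring, quantile normalization, spiked controls), a filter on dim probe sets, a stricter threshold, other variance settings, array weights, Col-0 arrays alone, a replicate block and each Col-0 array left out. Gene coordinates were used only to order neighbouring genes, and no sequences were used.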

Additional observations from a re-analysis of the deposited data

Results flagged for a closer look

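Of 66 genes checked, the 30 largest changes in Col-0 and the hormone genes, 40 had a response to IBA that differed between Col-0 and ibr1ibr3ibr10 in limma's test of the difference itself (5.74% of all genes did). The 30 were picked for their change in Col-0, which is also part of the difference tested, so the number of calls says nothing about other genes. Values are the Col-0 response minus the mutant response on the log2 scale.

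Among genes that conjugate or oxidize auxin, the difference was 5.72 for GH3.3, 3.43 for WES1, 2.60 for AT1G14120, 1.41 for GH3.1, 0.60 for GH3.17 and 0.48 for IAGLU. GH3.17 was not called in Col-0. In the lateral root factors it was 2.24 for LBD16, 1.88 for LBD29 and 1.07 for PUCHI. In other hormone genes it was 1.18 for WAG2, 1.01 for RR16, 1.00 for AT1G72140, 0.99 for IAA29 and 0.79 for UGT76C2.

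Among the other large rises, the difference was 3.53 for AT4G38080, 3.38 for XTH26, 3.18 for AT2G23540, 3.15 for AT1G74460, 2.76 for AT1G68850, 2.54 for AT5G12420, 2.36 for AT3G50400, 1.83 for AT5G13900, 1.81 for AT4G36610, 1.42 for AT5G14130 and 0.87 for AT1G60750. All of these but XTH26 and AT2G23540 also rose in the mutant. All but XTH26 had a higher DMSO mean in the mutant than in Col-0, a contrast that was not tested. AT4G38080 averaged 7.82 on IBA, against 6.43 on DMSO, in the mutant, and 8.14 against 3.20 in Col-0. AT2G23540 averaged 7.16 on IBA, against 6.47 on DMSO, in the mutant, and 6.88 against 3.01 in Col-0.

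Among the large falls, the difference was -2.28 for AT4G01140, -2.27 for AT2G40250, -2.20 for AT4G25250, -2.03 for XTH16, -1.88 for AT3G59370 and for AT5G04120, and -1.81 for AT5G66815. It was -1.65 for AT1G61840, -1.64 for AT4G11210, -1.40 for EXPB1, -1.39 for AT4G11020, -1.35 for AT5G18840, -1.34 for AT5G24100, -1.19 for AT2G02620 and -1.05 for AT1G24735.

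The spiked control probe sets, which measure no plant gene, were 0.44 higher on the IBA arrays of Col-0 than on its DMSO arrays. Scaling to them lowers each value above by 0.54, after which the difference was not called for AT1G60750 (0.33), GH3.17 (0.06), IAGLU (-0.06), PUCHI (0.53), RR16 (0.47), AT1G72140 (0.46), IAA29 (0.45) and UGT76C2 (0.25). The part of this difference in the results was not tested.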

How the results depend on the processing

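The count of risers among probe sets that name 1 gene (1327) and of fallers (1552) stayed within 1.5 times of these values under quantile normalization, the filter on dim probe sets, Col-0 arrays alone, other variance settings and array weights. Leaving out 1 Col-0 array gave 1090 to 1260 risers and 1079 to 1548 fallers. Median centring gave 2637 fallers, an adjusted p under 0.01 gave 798, and spike scaling gave 340 risers and 10041 fallers. With the replicate block, 1309 rose and 1559 fell, and 8 of 227 named genes lost their call; the labels give only a shared number, and the deviations of same-numbered arrays correlated at -0.21, 0.02 and -0.02, so the numbers were not taken to pair the samples. Of 209 named genes that were called, 44 lost the call without at least 1 array. Spike scaling turned the sign of 15 of 47 class medians and median centring that of 5. Spike scaling turned the following changes negative, the shift of 0.44 being larger than the rise: GH9C2 -0.014, GID1B -0.015, ATL8 -0.016, ZAP1 -0.038, BGLU45 -0.042, TBL36 -0.053, EXGT-A3 -0.060, GID1A -0.067, ATL63 -0.072, EXPA15 -0.077, CR4 -0.080, SCPL49 -0.080, bHLH34 -0.081, bHLH104 -0.085, EXPA9 -0.091, psaB -0.10, scpl48 -0.10, LEA18 -0.12, TET2 -0.13, SDH2-1 -0.14, NDB2 -0.14, TBL30 -0.15, BGLU43 -0.15, SDH1-1 -0.19, bZIP19 -0.20, SBT4.12 -0.25 and RR22 -0.43, of which only RR22 was then called. The difference of responses, with alternatives chosen after seeing the data, was called for 767 genes, for 7203 with spike scaling, for 828 with median centring and for 756 with the replicate block.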

Other observations

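The gene 2A6 (AT1G03410) has probe sets that were called in opposite directions. One had a mean of 8.05 on IBA, against 8.34 on DMSO, a change of -0.29, and the other had 4.43 on IBA, against 4.08 on DMSO, a change of 0.34. Of 147 genes with more than 1 probe set, 9 had all of them called, and 2A6 was the 1 case of opposite calls. The cause was not tested.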
